A study of Mus musculus with 2 samples.

Results

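The widest hotspots are the broadest unbroken stretches of DNase I cutting that the retina of mouse embryos showed in both of its libraries. They were chosen by width alone: a hotspot of replicate 1 on an autosome was a member when it spanned at least 1500 bp and shared at least 1 bp with a replicate 2 hotspot that also spanned at least 1500 bp. The rule was met by 3904 of the 142070 autosomal hotspots of replicate 1, which is 2.75%. The whole lists held 145732 hotspots in replicate 1 and 183723 in replicate 2. The series has 1 group, retina at embryonic day 14.5 from the strain labelled B6NCrl, with male and female tissue pooled and no allele or treatment labelled, assayed by DNase-seq as 2 biological replicates for ENCODE. The labels give the replicates 1 donor label but a biosample label each, and replicate 1 was read on an instrument model that replicate 2 was not. Widths chose the members, so everything measured from the same cutting is given as a description, and with 1 group there was no contrast to test.

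DNase I cuts DNA that is not wrapped tightly in nucleosomes, so a region that it cuts often is one where regulatory proteins hold chromatin open. A hotspot is a run of enriched cutting, and the peaks inside it are the short positions where the cutting is strongest. Broad open regions of this kind are known from CpG island promoters, stretches rich in G, C and the dinucleotide CpG that usually escape DNA methylation, and from the control regions of developmental transcription factor genes. The retina at this age holds dividing progenitors and the first ganglion, amacrine, horizontal and cone cells. In such a mixed tissue a region open in few cells and a region weakly open in many cannot be told apart.

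The strongest peaks of the 5 widest hotspots with a coding transcription start site (TSS) are shown first. They were picked for width and are not typical members. These 5 are on the plus strand of GRCm38 (mm10), from the RefSeq genome sequence, 150 bp each, and capitals mark matches to the short motifs searched.
Isl2, chr9:55541016-55541165: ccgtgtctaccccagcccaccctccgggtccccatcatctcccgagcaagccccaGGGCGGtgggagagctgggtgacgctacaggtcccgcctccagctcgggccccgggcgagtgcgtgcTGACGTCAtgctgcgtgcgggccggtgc
Tnrc18, chr5:142817776-142817925: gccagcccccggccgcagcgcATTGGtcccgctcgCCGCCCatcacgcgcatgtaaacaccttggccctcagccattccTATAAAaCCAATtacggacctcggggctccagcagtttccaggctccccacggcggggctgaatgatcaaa
Pcdh7, chr5:57719676-57719825: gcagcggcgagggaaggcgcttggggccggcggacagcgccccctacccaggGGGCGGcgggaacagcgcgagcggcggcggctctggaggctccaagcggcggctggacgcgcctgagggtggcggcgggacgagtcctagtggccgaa
Marcks, chr10:37138916-37139065: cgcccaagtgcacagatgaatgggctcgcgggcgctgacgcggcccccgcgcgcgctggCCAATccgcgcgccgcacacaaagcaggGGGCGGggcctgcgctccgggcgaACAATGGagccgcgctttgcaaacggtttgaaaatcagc
Mex3b, chr7:82866176-82866325: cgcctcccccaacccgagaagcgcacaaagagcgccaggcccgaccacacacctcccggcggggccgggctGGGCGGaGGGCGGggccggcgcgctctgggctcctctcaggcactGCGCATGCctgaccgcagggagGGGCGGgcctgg
The capitals are the GC box GGGCGG (bound by SP and Kruppel-like factors), the CCAAT box, the cAMP response element TGACGTCA, the TATA box TATAAA, the SOX motif ACAATGG and the NRF1 motif part GCGCATGC, on either strand. All 5 lie at promoters, within 1000 bp of an annotated TSS. All 5 hold at least 1 GC box, and Mex3b holds 3. Their GC content was 72.7% for Isl2, 62.7% for Tnrc18, 77.3% for Pcdh7, 69.3% for Marcks and 77.3% for Mex3b, with 12 to 21 CpG dinucleotides in each.

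The strongest peaks of the 5 widest members that lie over 1000 bp from any TSS are shown for contrast, each named for the coding gene with the nearest TSS. Capitals again mark motif matches: an E-box CAGCTG and a homeodomain core TAATTA near Zic2, and the CTCF core and a GC box near Tex44.
near Kdm6b, chr11:69417576-69417725: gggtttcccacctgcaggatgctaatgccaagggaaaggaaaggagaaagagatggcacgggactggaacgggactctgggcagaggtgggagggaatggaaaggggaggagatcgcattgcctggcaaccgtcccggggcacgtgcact
near Slc2a1, chr4:119071556-119071705: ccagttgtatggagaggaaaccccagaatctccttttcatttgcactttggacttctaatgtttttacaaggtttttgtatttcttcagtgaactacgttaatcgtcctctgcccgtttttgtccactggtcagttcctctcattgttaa
near Zic2, chr14:122482636-122482785: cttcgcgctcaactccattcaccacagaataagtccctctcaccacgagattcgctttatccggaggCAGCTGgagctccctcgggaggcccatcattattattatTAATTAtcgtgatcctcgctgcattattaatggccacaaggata
near Sp9, chr2:73278596-73278745: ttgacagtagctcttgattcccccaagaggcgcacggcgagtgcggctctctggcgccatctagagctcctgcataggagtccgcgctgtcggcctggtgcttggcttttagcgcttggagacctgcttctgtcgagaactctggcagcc
near Tex44, chr1:86440636-86440785: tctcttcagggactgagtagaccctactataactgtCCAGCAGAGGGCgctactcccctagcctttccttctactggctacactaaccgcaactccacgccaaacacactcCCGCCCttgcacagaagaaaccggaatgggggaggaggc
Their GC content was 60% near Kdm6b, 40% near Slc2a1, 48.0% near Zic2, 60.7% near Sp9 and 56.0% near Tex44, with 3 to 10 CpG dinucleotides in each. The peak near Sp9 is intronic and the other 4 are intergenic. The sequences near Kdm6b, Slc2a1 and Sp9 hold none of the 12 motifs searched. A match says only that these letters are present.

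Members ran from 1500 to 8293 bp in replicate 1, with a median of 1834 bp. The replicate 2 hotspots paired with them ran from 1500 to 12405 bp, with a median of 2196 bp. Together they covered 7.76 Mb in replicate 1 and 9.50 Mb in replicate 2. Few were far above the limit. By the smaller of their widths in the libraries, 2616 members spanned 1500 to under 2000 bp, 1130 spanned 2000 to under 3000 bp, 125 spanned 3000 to under 4000 bp, 24 spanned 4000 to under 5000 bp, and 9 spanned 5000 bp or more. Replicate 2 had the wider interval at 3404 members (87.2%), replicate 1 at 490, and 10 were equal. The median ratio of the replicate 2 to the replicate 1 width was 1.14, with the 5th to 95th percentile from 0.943 to 1.81. A member was usually a core of the replicate 2 interval: 2769 (70.9%) lay wholly inside it. Across members the widths had a Spearman correlation of 0.617, given as a description over 3904 regions that share their libraries. A difference in depth between the libraries, which the files do not give, cannot be told apart from a difference between the tissue samples.

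**Figure D1:**
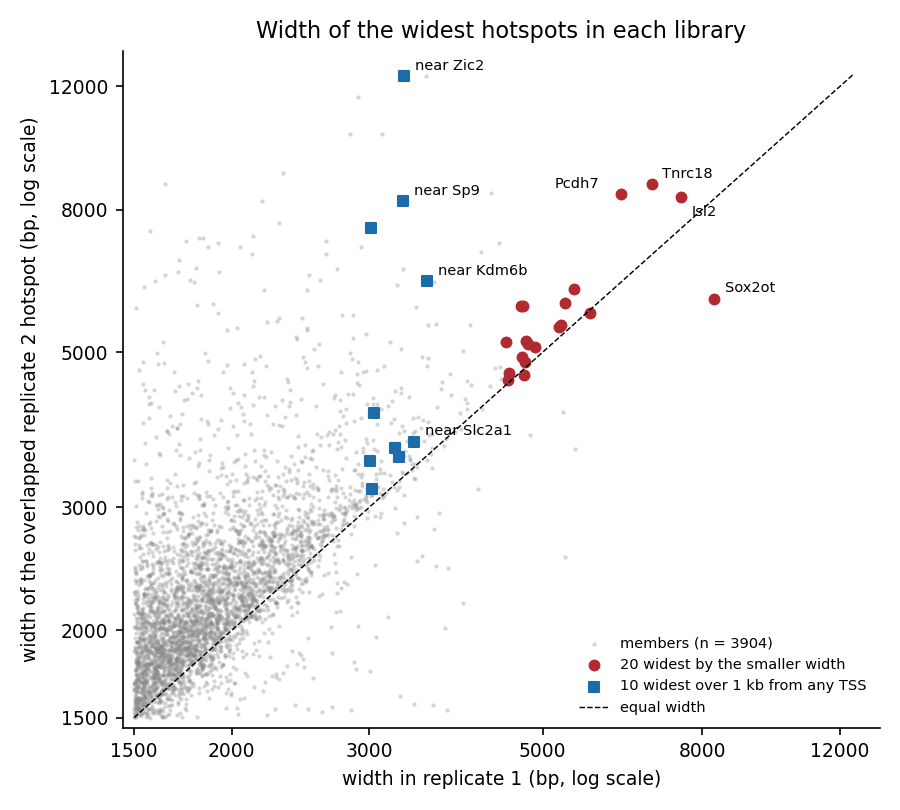
Width of each member in replicate 1 (x axis, bp, log scale) against the width of the replicate 2 hotspot paired with it (y axis, bp, log scale), with grey points for the 3904 members, red circles for the 20 widest by the smaller width and blue squares for the 10 widest over 1000 bp from any TSS. Most points sit above the dashed line of equal width, and the hotspot near Zic2 stands out with 3325 bp in replicate 1 and 12405 bp in replicate 2.

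The limit cut through a continuous range of widths. Just inside it were the member shared by the promoters of Lats1 and Pcmt1 (1570 bp in replicate 1, 1500 bp in replicate 2), the Rc3h2 promoter (1500 and 2107 bp) and the shared promoter of Mrpl47 and Ndufb5 (1500 and 1530 bp). Just outside it were Acin1 and Cntn1, each 1 bp short in replicate 1 and with 1871 bp (Acin1) and 1739 bp (Cntn1) in replicate 2, and, short in replicate 2, the shared promoter of Erp44 and Invs (1505 and 1498 bp) and Nudt9 (1611 and 1497 bp). Of 4110 autosomal replicate 1 hotspots past the limit, 95% were members. The 206 others mostly missed by their replicate 2 width: 199 overlapped a narrower replicate 2 hotspot, with a median of 1317 bp, and 7 overlapped none. The widest of these was at Parp3, a poly(ADP-ribose) polymerase gene, with 4608 bp in replicate 1 and 721 bp in replicate 2. From the other side, 3882 of 8526 replicate 2 hotspots past the limit (45.5%) overlapped a replicate 1 hotspot past it, and these 3882 intervals stand for the members in the replicate 2 summaries of position, peaks and sequence.

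The widest by the smaller width was at Isl2, a LIM homeodomain factor of a subset of ganglion cells, with 7521 bp in replicate 1 and 8335 bp in replicate 2. It held 10 and 12 peaks. The Isl2 member reached 1656 bp upstream and 5864 bp downstream of the TSS in replicate 1, and 1762 bp and 6572 bp in replicate 2, so most of it lay over the gene. Tnrc18, a trinucleotide repeat-containing gene, followed with 6901 bp in replicate 1 and 8691 bp in replicate 2, and had the most peaks of any member by the lower library, 13 and 14. Unlike Isl2, the Tnrc18 member ran mainly upstream, by 5228 bp against 1672 bp downstream in replicate 1 and by 6976 bp against 1714 bp in replicate 2. Pcdh7, a protocadherin adhesion gene, had 6302 bp and 8420 bp with 11 and 16 peaks. In replicate 1 its interval lay mostly before the first start, with 4019 bp upstream and 2282 bp downstream, while in replicate 2 it reached 4083 bp upstream and 4336 bp downstream.

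The widest single interval of replicate 1 was not at a coding gene. It spanned 8293 bp at a start of Sox2ot, the noncoding transcript that overlaps Sox2, at 10216 bp from the nearest Sox2 TSS, with 5963 bp in replicate 2 and 12 and 10 peaks. Its strongest peak in replicate 1 scored 88, the lowest of these 5 widest. Sox2 itself, the SOX factor of neural progenitors, lay in a separate member of 4164 bp in replicate 1 and 6956 bp in replicate 2, with 7 and 13 peaks. Marcks, a membrane protein that is a substrate of protein kinase C, had 5756 bp and 5684 bp with 11 and 8 peaks, and its interval ended within 100 bp of the same places in both libraries. Mex3b, an RNA-binding protein, had 5491 bp and 6148 bp with 8 and 11 peaks.

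**Figure D2:**
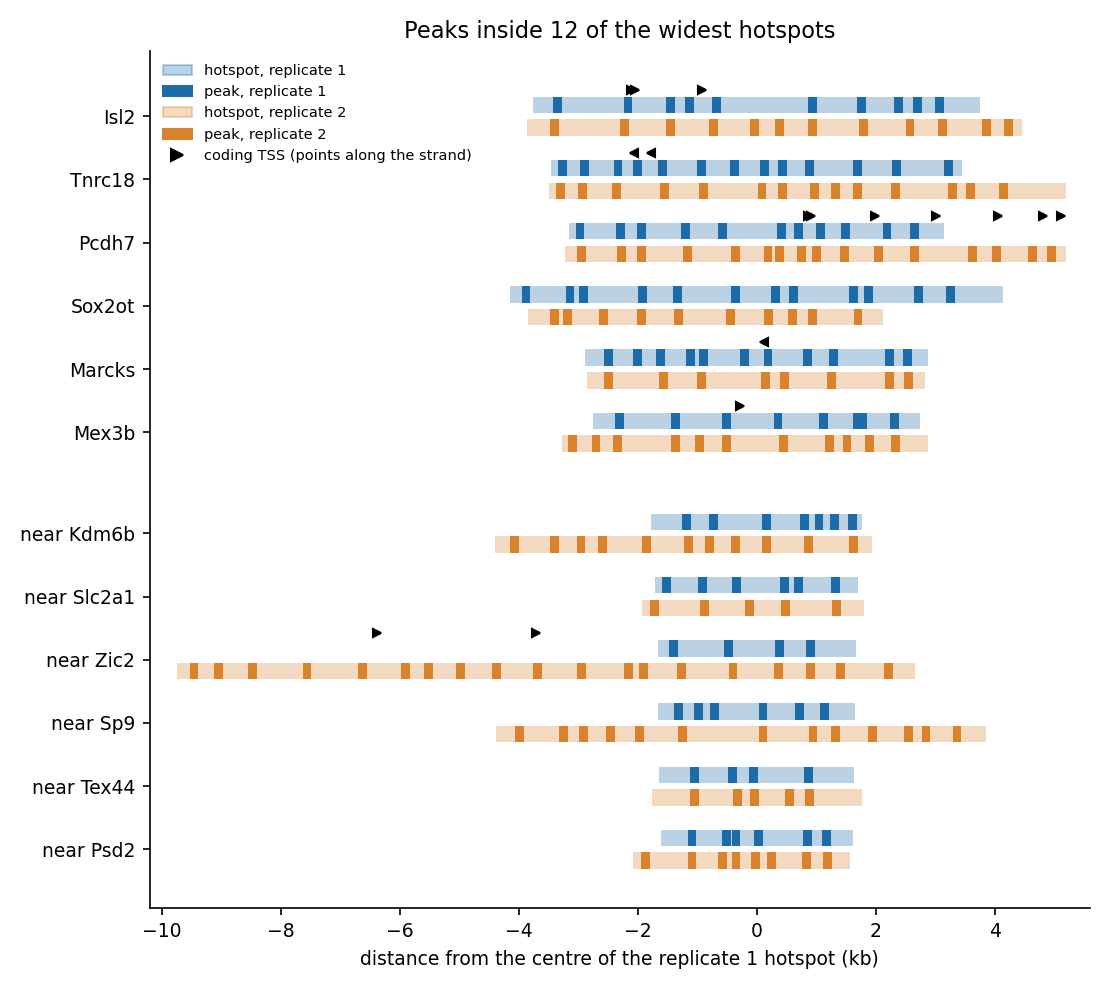
Hotspots (pale bars) and 150 bp peaks (dark blocks) of replicate 1 in blue and replicate 2 in orange at 12 members, by distance in kb from the centre of the replicate 1 hotspot, with arrowheads for coding TSSs. The upper 6 are the widest members and the lower 6 the widest over 1000 bp from any TSS. Peaks are spread along the whole interval, and the replicate 2 hotspot near Zic2 runs on to the Zic2 starts.

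Next in order came the noncoding Six3os1 beside the eye field homeobox gene Six3, with 5335 bp in replicate 1 and 5879 bp in replicate 2. Myc, the growth-promoting transcription factor, had 5270 bp and 5460 bp with 11 and 8 peaks. Its relative Mycn had 4689 bp and 5827 bp with 8 and 9 peaks. Tgif1, a homeodomain corepressor, had 5241 bp and 5424 bp, of which 361 bp and 420 bp lay upstream of the TSS. Hes1, the repressor that carries out Notch signals in progenitors, had 4794 bp and 5139 bp with 7 and 8 peaks. The other members of the 20 widest were at Rcor2 (4883 and 5090 bp), a CoREST corepressor subunit, Zmiz1 (4759 and 5190 bp), a transcriptional coactivator, and Trib1 (4745 and 4839 bp), a pseudokinase. Arrdc3 (4720 and 5830 bp) codes for an arrestin-like protein and Ubtf (4709 and 4921 bp) for a factor of ribosomal RNA gene transcription. The list closed with the shared promoter of Mrps18b and Ppp1r10 (4730 and 4631 bp), Zswim6 (4527 and 4674 bp), the Wnt receptor gene Fzd5 (4516 and 4569 bp) and Fat1 (4481 and 5175 bp), an atypical cadherin. Zswim6 has a noncoding gene type in the annotation used.

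Most members were promoters. The strongest peak of a member lay within 1000 bp of an annotated TSS in 3406 of 3904 members of replicate 1 (87.2%). The exact Clopper-Pearson 95% interval was 86.2 to 88.3%, for counting error only. For the 3882 intervals of replicate 2 the share was 87.1%. These were picked by overlap with wide replicate 1 hotspots, so the values describe much the same loci and give no spread between replicates. All autosomal hotspots of at least 1500 bp in 1 library alone had 86.0% in replicate 1 and 76.1% in replicate 2. In members, introns held 5.05% and 5.49% of the strongest peaks, exons 1.69% and 1.44%, and intergenic sequence 6.02% and 6.0%. Hotspots of 1000 to under 1500 bp that overlapped the other library had 72.4% at promoters in replicate 1 and 50.5% in replicate 2. All shared hotspots under 1500 bp had 23.8% and 19.5%, leaving out the 3.63% and 1.58% of them without a peak. Regions of a library are not replicates of a condition, so these shares carry no test.

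The promoter share was low below 500 bp, climbed with width from there and then levelled off. In replicate 1 it was 18.7% under 250 bp, 15.9% from 250 to under 500 bp, 33.4% from 500 to under 1000 bp, 72.4% from 1000 to under 1500 bp, 85.6% from 1500 to under 2000 bp, 87.6% from 2000 to under 3000 bp and 83.6% at 3000 bp and over. In replicate 2 the same classes gave 17.3%, 12.4%, 19.5%, 50.5%, 73.5%, 80.6% and 77.4%. The step near 1000 bp was steeper in replicate 1, whose hotspots were narrower. By the place of the strongest peak, the widest class stood a few points below the class before it in both libraries. The share with an annotated TSS anywhere inside went on rising over the classes from 1500 bp. It was 85.7%, 89.5% and 91.5% in replicate 1 and 73.3%, 82.7% and 87.0% in replicate 2.

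**Figure D3:**
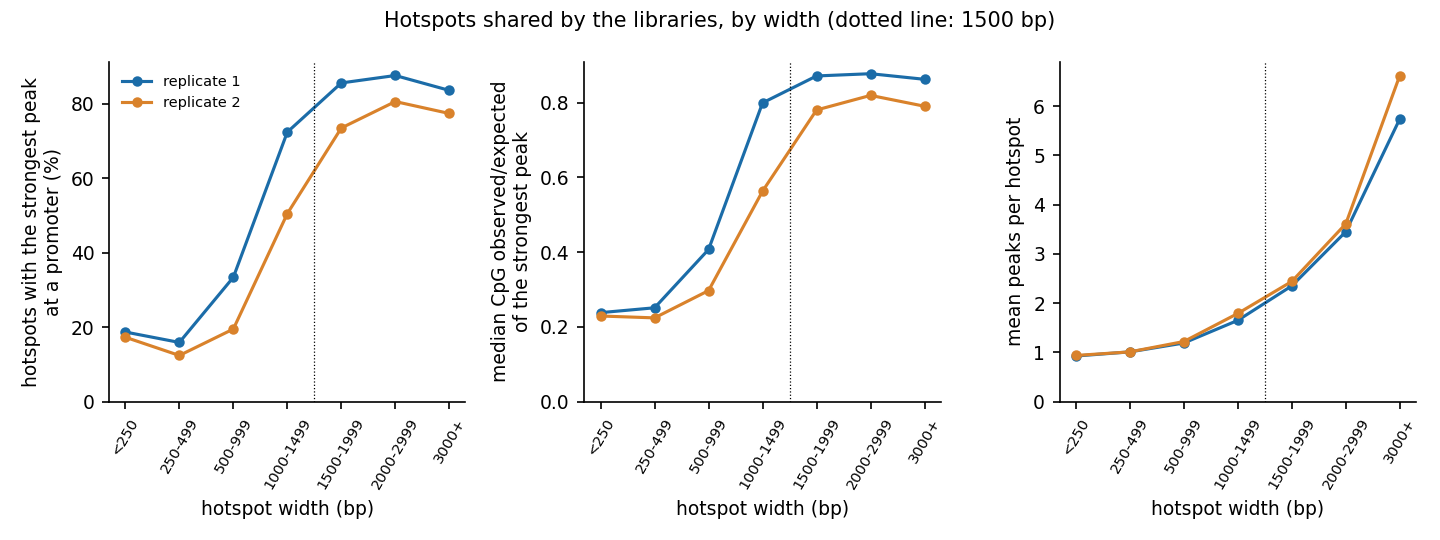
Hotspots that overlap the other library, by width class in bp (x axis), with replicate 1 in blue and replicate 2 in orange: the percentage whose strongest peak is at a promoter (left), the median CpG observed over expected of that peak (middle) and the mean number of peaks per hotspot (right). The dotted line marks 1500 bp. Promoter share and CpG content level off beyond it, while peaks per hotspot go on to 5.74 in replicate 1 and 6.62 in replicate 2 at 3000 bp and over.

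Inside the intervals, 3449 members (88.3%) held at least 1 TSS of any kind and 3340 (85.6%) a coding one. A single coding gene was present in 2901, and 439 (11.2%) held at least 2. Pairs of coding genes read in opposite directions from starts within 1000 bp of each other were present in 359 members (9.20%). Only noncoding starts were present in 109. Where a TSS was inside, the strongest peak had its nearest TSS at a median of 68 bp, and within 250 bp in 82.4%. A whole coding gene fitted inside in 27 cases, most of them short gene models with provisional Gm or Rik names. The few established genes included Hist1h1b, a replication-dependent linker histone gene (2173 and 2774 bp), and the linker histone gene H1fx (2163 and 2168 bp). Another was Rprm, an intronless cell cycle inhibitor gene (2306 and 2600 bp).

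Around the TSS the intervals leaned into the gene. Replicate 1 had 2900 members with a single coding gene, and these reached a median of 701 bp upstream and 1158 bp downstream of its most 5' start inside. The 2918 such intervals of replicate 2 reached 836 bp and 1365 bp. The downstream arm was the longer in 75.3% and 78.1%. Measuring from the most 5' start gives a gene with several starts its shortest upstream arm, in hotspots of any width. The part of this in the lean was not tested. The lean was not particular to the widest: hotspots of 1000 to under 1500 bp reached 465 bp upstream and 739 bp downstream in replicate 1 and 482 bp and 755 bp in replicate 2, with the downstream arm longer in 75.9% and 76.1%. Tnrc18, above, was an exception in both libraries, and Pcdh7 in replicate 1 alone. Another in both was Dusp4, a phosphatase gene of MAP kinase control, with 2680 bp upstream and 1660 bp downstream in replicate 1 and 2820 bp and 1929 bp in replicate 2.

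**Figure D4:**
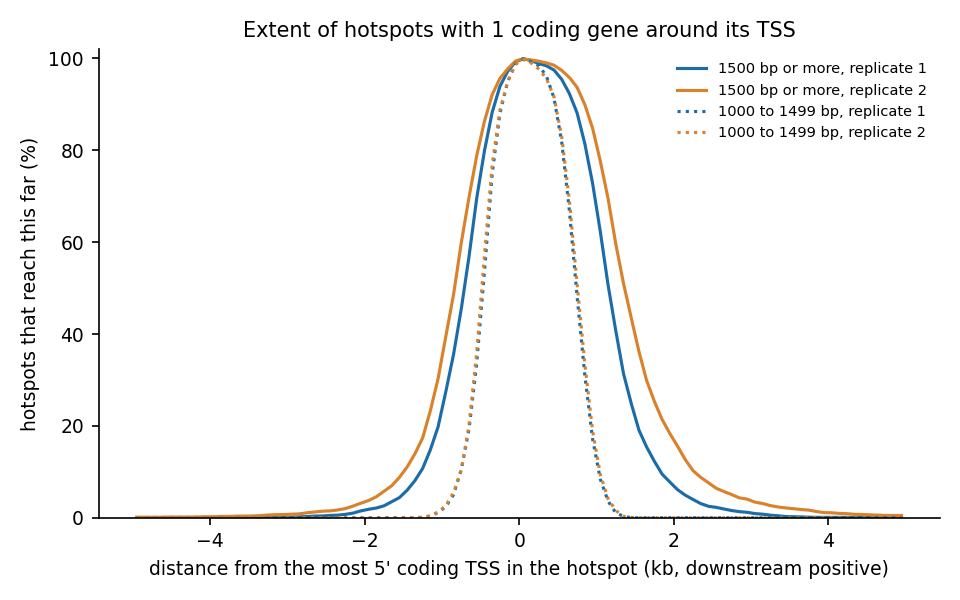
Percentage of hotspots with a single coding gene that reach a given distance (x axis, kb, downstream positive) from its most 5' TSS inside, for members of 1500 bp or more (solid) and hotspots of 1000 to under 1500 bp (dotted) in replicate 1 (blue) and replicate 2 (orange). All 4 curves extend further downstream than upstream, with medians of 1158 bp and 701 bp for members of replicate 1.

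Members held several peaks each. Replicate 1 had 11046 peaks with their midpoint in a member, a mean of 2.83 and a median of 3 per member, from 1 to 13. Replicate 2 had 14011 peaks, a mean of 3.61 and a median of 3, from 1 to 24. In replicate 1, 400 members held 1 peak, 1345 held 2, 1263 held 3, 555 held 4, 204 held 5 and 80 held 6. Members took 6.68% and 6.39% of all peaks of the libraries but 14.5% and 11.8% of the bases in autosomal hotspots. There were 1.42 and 1.5 peaks per kb in members, 1.36 and 1.47 per kb in hotspots of 1000 to under 1500 bp, and 2.79 and 2.23 per kb in all shared hotspots under 1500 bp. Neighbouring peaks of a member lay a median of 520 bp apart in both libraries, with the 25th to 75th percentile from 380 to 700 bp.

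The peaks of a member were put in order of score, so a fall along that order is set by the ordering itself. The deposited peak score, a number from 1 to 150 whose meaning is not stated, had a median of 115 for the strongest peak of a member in replicate 1, then 72, 51, 45 and 41 for the next 4 in order. In replicate 2 the same medians were 131, 99, 78, 68 and 63. Fewer members hold a peak at each later place, so these medians do not follow the same members. In replicate 1 the number fell from 3904 members for the strongest peak to 341 for the last of these places. For replicate 2 it fell from 3882 to 843. The strongest peak of a member stood at a median rank percentile of 96.5 in replicate 1 and 97.3 in replicate 2 among all peaks of its library. For hotspots of 1000 to under 1500 bp these were 94.0 and 91.1, and for all under 1500 bp 56.5 and 68.7. Members held 28.5% and 25.1% of the peaks at a rank percentile of 90 or more.

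Weaker peaks of members recurred less often in the other library than peaks of like rank in narrower hotspots. Of all peaks in members, 85.9% in replicate 1 and 77.0% in replicate 2 overlapped a peak of the other library by at least 1 bp, against 89.6% and 90.6% in shared hotspots under 1500 bp. At a rank of 90 or more the shares were 96.8% and 94.6% in members and 99.2% and 98.6% in narrower hotspots. From rank 50 to 90 they were 81.1% and 70.1% in members and 94.8% and 93.2% in narrower ones. Below rank 50 they were 49.8% and 37.8% in members and 81.4% and 81.0% in narrower ones. Both sets were limited to hotspots that overlap the other library, which in a hotspot with a single peak ties the peak to that overlap, and the part of this in the difference was not tested.

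The sequence under the strongest peak was rich in CpG. Its median GC content was 69.3% in members of replicate 1 and 68.0% in replicate 2, and its CpG observed over expected, the count of CpG relative to what its C and G content would give, was 0.875 and 0.843. Hotspots of 1000 to under 1500 bp had 64.7% and 58.0% GC with 0.799 and 0.563, and all under 1500 bp had 51.3% and 51.3% with 0.282 and 0.263. These classes needed only an overlap with the other library, while members had to be wide in both. Replicate 2 hotspots of 1500 to under 2000 bp with any such overlap had 64.7% and 0.780. Among promoters the members were close to the neighbouring class in replicate 1. Members whose strongest peak was a promoter had 70% GC and 0.904 there, against 68.0% and 0.884 for promoter hotspots of 1000 to under 1500 bp and 58.0% and 0.548 for all under 1500 bp. In replicate 2 they had 68.7% and 0.871, against 64.7% and 0.811 for 1000 to under 1500 bp and 58.0% and 0.521 for all under 1500 bp. Over the whole interval, 77.8% of members in replicate 1 and 73.9% in replicate 2 had a CpG observed over expected of 0.6 or more. Members whose strongest peak lay elsewhere had 56.7% and 56.0% GC, with 0.511 and 0.479, against 53.3% and 51.3% GC, with 0.376 and 0.316, at 1000 to under 1500 bp.

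At promoters the GC box was present in 65.6% of strongest peaks of members in replicate 1 and 63.7% in replicate 2, against 59.3% and 51.7% at 1000 to under 1500 bp and 29.2% and 29.3% in all promoter peaks of hotspots under 1500 bp. The CCAAT box, bound by NF-Y, was present in 29.2% and 31.0% of members, 27.7% and 27.3% at 1000 to under 1500 bp and 20.5% and 21.4% of all under 1500 bp. The ETS motif CCGGAAG was present in 7.52% and 7.46% of members, 14.0% and 14.9% at 1000 to under 1500 bp, and 6.58% and 7.16% of all under 1500 bp. The NRF1 part and the YY1 motif AAGATGGC also had lower shares in members than in the neighbouring class and higher ones than in the whole narrower set. The NRF1 part was present in 3.44% and 3.40% of members, 4.41% and 4.22% at 1000 to under 1500 bp and 1.92% and 2.03% of all under 1500 bp. YY1 was present in 2.32% and 1.95% of members, 2.97% and 2.68% at 1000 to under 1500 bp and 1.54% and 1.61% of all under 1500 bp. The cAMP response element was present in 3.02% of members in both libraries, about as often as at 1000 to under 1500 bp (3.09% and 3.04%), against 1.37% and 1.47% of all under 1500 bp. TATA boxes were present in 1.38% and 1.45% of members, 1.68% and 2.16% at 1000 to under 1500 bp and 3.45% and 3.48% of the whole narrower set. The SOX motif was present in 1.03% and 1.04% of members, 0.851% and 1.06% at 1000 to under 1500 bp and 1.62% and 1.78% of all under 1500 bp. The AP-1 motif TGANTCA was present in 1.23% and 1.21% of members, 1.76% and 2.08% at 1000 to under 1500 bp and 2.88% and 3.04% of all under 1500 bp.

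Away from promoters the CTCF core, the motif of the insulator protein, was present in 3.41% and 3.39% of strongest peaks of members. Hotspots of 1000 to under 1500 bp were close to that, with 3.74% and 3.17%, and all under 1500 bp had 7.0% and 7.77%. The homeodomain core was present in 5.62% and 5.78% of members, 7.85% and 10.2% at 1000 to under 1500 bp and 6.27% and 6.85% of all under 1500 bp. The E-box, bound by basic helix-loop-helix factors, was present in 16.9% and 17.5% of members, 17.7% and 18.3% at 1000 to under 1500 bp and 16.0% and 16.7% of all under 1500 bp, so the sets were close. The GC box was present in 25.7% and 21.3% of members outside promoters, 15.1% and 11.0% at 1000 to under 1500 bp and 5.73% and 5.80% of all under 1500 bp. All peaks compared are 150 bp long, matches on both strands were counted, and matches of different motifs may overlap. In these motif shares too, members had to be wide in both libraries, while the narrower classes needed only an overlap with the other library.

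Of 20807 autosomal coding genes, 3711 had a TSS in a member (17.8%, exact 95% interval 17.3 to 18.4%). The share differed with CpG content at the 5' end. Genes with a CpG observed over expected of at least 0.6 in the 500 bp to each side of their 5' end had a TSS in a member in 3068 of 9816 cases (31.3%), against 643 of 10991 (5.85%) for the others. For 28 lists of genes the same share is given below beside the 17.8% of all coding genes. Many lists hold mostly genes at or above 0.6, for which 31.3% is the closer background, and lists lay on both sides of it. Within that class the share was 26.7% for SOX factors, 17.6% for amacrine and horizontal genes and 13.6% for DNA replication and mitosis genes. It was 72.2% for retinal progenitor and 76.9% for chromatin remodelling genes. The lists overlap and were chosen with earlier results of these data known, so the shares describe them and are not tests. The widths at a gene are those of its widest member and the replicate 2 hotspot paired with it, or, outside members, those of the widest hotspot over any of its TSSs in each library.

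Among retinal progenitor genes 16 of 22 (72.7%) had a TSS in a member, led by Hes1, Fzd5 and Sox2, above, and Pax6 (4811 bp in replicate 1, 3800 bp in replicate 2), the master regulator of eye development. Others were Six6 (3437 and 5802 bp), Rax (2071 and 2224 bp) and Lhx2 (2425 and 1789 bp), all eye field homeobox genes. The homeobox gene Meis2 (843 bp in replicate 1, 4141 bp in replicate 2) and the Notch target Hes5 (1444 and 1836 bp) were outside through replicate 1. All 22 had a hotspot at a TSS in both libraries, with median widths of 2371 and 3673 bp, against 1174 and 1470 bp for coding genes with a hotspot.

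Of neurogenic genes 9 of 21 (42.9%) were in a member, among them Insm1 (3593 and 3569 bp), a zinc finger factor of newborn neurons, Sox11 (3169 and 4185 bp) and the proneural gene Neurog2 (2423 and 5220 bp). Atoh7, the proneural gene of ganglion cells, had 1447 and 1220 bp and was not. Ganglion cell genes counted 10 of 26 (38.5%), with Isl2 far ahead of Dlx1 (2361 and 2288 bp), Dlx2 (2142 and 2211 bp) and the neurofilament gene Nefm (2041 and 2774 bp). The ganglion cell factor Ebf1 (898 and 1343 bp) was not in one. Amacrine and horizontal cell genes counted 4 of 22 (18.2%), with Bhlhe22 (2122 and 6911 bp) behind Pax6, and photoreceptor precursor genes 3 of 17 (17.6%), with Thrb (2519 and 2783 bp), the cone thyroid hormone receptor, and Otx2 (2371 and 4421 bp). Genes of the optic stalk and of the ventral and dorsal eye counted 8 of 19 (42.1%), led by Foxd1 (2893 and 4651 bp), a factor of the temporal retina.

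Signalling genes of the Notch, Wnt, Hedgehog, FGF and BMP pathways counted 30 of 46 (65.2%). After Hes1 and Fzd5 came Gli1 (4004 and 4148 bp), a transcription factor of the Hedgehog pathway, then Smad6 (3318 and 3552 bp), an inhibitor of BMP signals, and Rbpj (3224 and 3510 bp), the DNA-binding partner of Notch. Fgfr2 had a member of its own (1938 and 1770 bp). It was also credited with 1 of 3860 and 3838 bp at the Ctbp2 promoter, because its annotated span runs for 2961 kb. Ligand genes lay on both sides of the limit. Bmp4 (969 and 1021 bp) and Bmp7 (715 and 834 bp) were not in members, while Wnt5a (2755 and 4123 bp), Fgf9 (2040 and 2748 bp) and Jag1 (1887 and 1879 bp) were.

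Among transcription factor families, Kruppel-like and SP factors counted 15 of 24 (62.5%), led by Klf10 (3465 and 4042 bp), Klf13 (3225 and 4008 bp) and Klf16 (3098 and 3403 bp). Forkhead factors counted 13 of 34 (38.2%), led by Foxo3 (4436 and 5172 bp), and SOX factors 5 of 18 (27.8%), with Sox12 (3812 and 4347 bp) after Sox2. No Hox gene of 39 was in a member, with an exact upper limit of 9.03%. The Hox cluster genes set positional identity along the trunk, and 14 had a hotspot at a TSS in replicate 1 and 9 in replicate 2. Hoxa2 had none at its TSS in replicate 1 and 4931 bp in replicate 2.

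Chromatin remodelling and acetylation genes counted 25 of 34 (73.5%), near the 72.7% of the progenitor genes, led by Brd2 (4422 and 4576 bp), a reader of acetylated histones, Hmga1 (4180 and 4141 bp) and Smarca2 (4053 and 4481 bp), an ATPase of the BAF complex. Polycomb and Trithorax genes counted 21 of 33 (63.6%), among them Kmt2c (3188 and 3332 bp) and Kmt2a (4128 and 3182 bp), which methylate histone H3, and Ring1, a Polycomb ubiquitin ligase that shares its member of 5346 and 2549 bp with H2-Ke6. Genes of the Myc network, cyclins and cell cycle control counted 17 of 27 (63.0%), with E2f3 (3978 and 4280 bp) and Mnt (3578 and 3802 bp) after Myc and Mycn. Genes of DNA replication and mitosis, the machinery that these factors control, counted 4 of 27 (14.8%), at most 1890 bp in replicate 1 (Cdt1, 1890 and 1843 bp). Immediate early genes counted 15 of 29 (51.7%), with Jun (4296 and 8460 bp) after Myc, and stress response genes 14 of 26 (53.8%), led by Ddit3 (3561 and 3967 bp).

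Ribosomal protein genes, which nearly all cells express strongly, were seldom in members. Of the 70 cytoplasmic ribosomal protein genes, 2 were in a member (2.86%, exact 95% interval 0.348 to 9.94%): Rpl7 (2355 and 2584 bp) and Rps19 (1560 and 1693 bp). All 70 had a hotspot at a TSS in both libraries, with median widths of 993 and 1094 bp, and 65 had a CpG observed over expected of at least 0.6, a class in which 31.3% of all coding genes were in a member. At a limit of 1000 bp the count of ribosomal protein genes was 35 (50%), beside 41.6% of all coding genes. With replicate 2 widths alone it was 10 of the 70, beside 6859 of all 20807 coding genes. Other housekeeping genes counted 9 of 23 (39.1%), led by the tubulin genes Tubb5 (2917 and 3074 bp) and Tuba1a (2597 and 2661 bp). Splicing and RNA-binding genes counted 20 of 40 (50%), led by Hnrnpl (3613 and 3412 bp).

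Phototransduction genes counted 1 of 28 (3.57%), the widely expressed G protein subunit gene Gnb1 (2070 and 2170 bp). Pigment epithelium genes counted 1 of 17, by Otx2, and lens genes 1 of 21, by Maf (2873 and 3019 bp), both transcription factors used in several tissues. Endothelial genes counted 2 of 18, the VEGF receptor genes Kdr (1795 and 2236 bp) and Flt1 (1728 and 4081 bp). Periocular mesenchyme and neural crest genes counted 4 of 22 (18.2%), and skeletal muscle genes 1 of 21, by Mylpf (2038 and 1520 bp). No gene of 18 microglia and immune genes and none of 20 hepatocyte genes was in a member. Apart from the mesenchyme list, with 12 of 22, few genes of these lists had a CpG observed over expected of at least 0.6 at the 5' end: 1 phototransduction, 3 pigment epithelium, 5 lens, 2 muscle and 4 endothelial genes, and no immune or hepatocyte gene. Of all coding genes below 0.6, 5.85% were in a member. As a check of the tissue label, the progenitor markers Rax, Pax6, Six3, Six6 and Lhx2 and all 3 ganglion cell markers (Pou4f2, Isl1 and Atoh7) had a hotspot at a TSS in both libraries, and none of the 10 markers of blood, liver, muscle and lens did. Other genes of those lists did have one in both libraries, among them, chosen after their values were seen, the lens genes Cryba1 (248 and 171 bp) and Bfsp1 (1015 and 1294 bp), the muscle gene Ryr1 (890 and 870 bp) and the microglia gene Tmem119 (758 and 835 bp). The hepatocyte factor gene Hnf4a had 1 in replicate 2 only (496 bp). Over the whole lists, a hotspot at a TSS was present for 6 of 21 lens, 4 of 21 muscle, 2 of 18 immune and none of 20 hepatocyte genes in replicate 1, and for 11, 6, 3 and 2 of them in replicate 2.

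**Figure D5:**
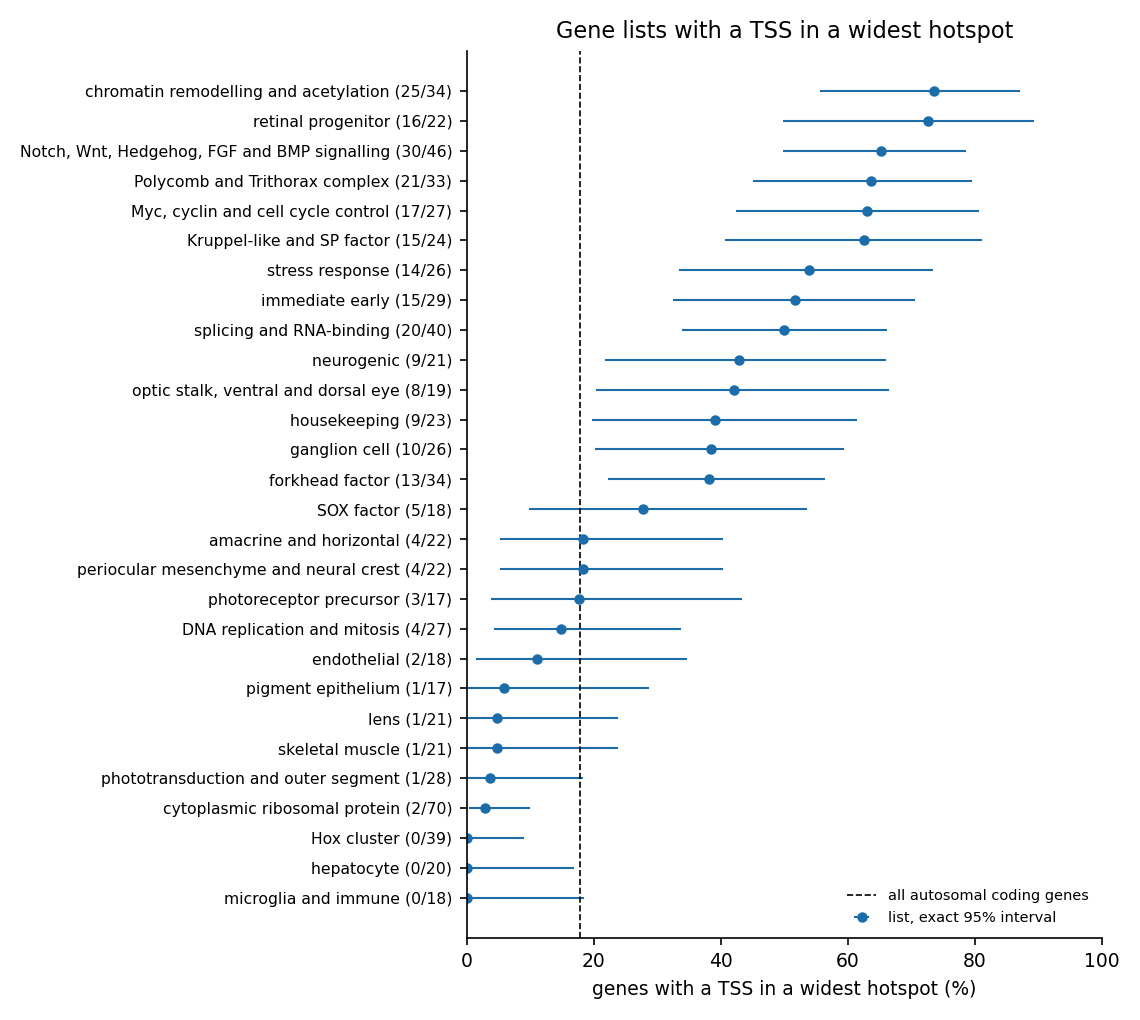
Percentage of the genes of each list with a TSS in a member (points, with exact 95% intervals for counting error), with the number in a member and the list size in brackets, and the 17.8% of all autosomal coding genes as a dashed line. Chromatin remodelling genes (73.5%) and retinal progenitor genes (72.7%) are at the top, and ribosomal protein genes (2.86%) and Hox genes (none of 39) near the bottom.

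Away from TSSs, 388 members (9.94%) lay over 1000 bp from any annotated start, 189 of them in gene bodies and 199 outside. Their median widths were 1777 bp in replicate 1 and 2104 bp in replicate 2, against 1844 and 2204 bp for the 3449 members with a TSS inside, and the median number of peaks was 3 in both libraries in either set. Their sequence was much poorer in CpG, with a median GC content of 50.3% and a CpG observed over expected of 0.362 over the whole interval, against 60.7% and 0.750. Their nearest coding TSS was at a median of 26.5 kb, within 10 kb for 123 and over 100 kb away for 91. In 18 of the 388 (4.64%) the wider replicate 2 interval did take in a TSS.

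The widest of these lay near Kdm6b, a demethylase of lysine 27 of histone H3, with 3559 bp in replicate 1 and 6323 bp in replicate 2 and 7 and 11 peaks. The member near the glucose transporter gene Slc2a1 had 3423 bp and 3725 bp. It lay 34454 bp from the Slc2a1 TSS and 1724 bp from a TSS that is not of a coding gene. The member near Zic2, a zinc finger gene of the ventrotemporal retina, had 3325 bp in replicate 1, and its replicate 2 hotspot of 12405 bp is the widest on the autosomes of that library and also covers the Zic2 promoter member. The member near Sp9 had 3315 and 8231 bp, that near Lef1, a factor of the Wnt pathway, 3044 and 4091 bp, that near Pou3f2, a POU factor of neurons, 3008 and 3492 bp, and that near Six3 3011 and 7539 bp. The replicate 2 hotspot of 7539 bp also covers the Six3 TSS, so this member is distal in replicate 1 only. The list is completed by members near Tex44 (3270 and 3539 bp), Psd2 (3231 and 3647 bp) and A930004D18Rik (3026 and 3186 bp). The Tex44 TSS was 13795 bp away and the Psd2 TSS 42998 bp, the latter with a noncoding TSS at 1463 bp.

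Some genes had several. Six3 was the nearest coding gene of 7 distal members, Zfp608 of 5, and Kdm6b and Sp9 of 3 each, and the nearest gene need not be the gene a region acts on. These are replicate 1 intervals. Members near Kdm6b share a replicate 2 hotspot of 6323 bp, and members near Sp9 share 1 of 8231 bp. Of all members, 61 shared their replicate 2 hotspot with another member, at 30 such hotspots. Around Six3 the distal members included 1 of 1990 and 2597 bp at 147691 bp from the TSS, and 1 of 1751 and 3091 bp at 219008 bp. The Six3 TSS itself was not in a member: its hotspot spanned 1327 bp in replicate 1 and 7539 bp in replicate 2. Over all coding genes, 346 of 20807 (1.66%) were nearest to a distal member. For the lists this was 6 of 22 progenitor genes, 5 of 18 SOX factors, 5 of 21 neurogenic genes and 5 of 29 immediate early genes, and none of 70 ribosomal protein genes, 40 splicing genes or 26 ganglion cell genes. Atoh7 had 1 at 8.82 kb (1990 and 1697 bp). Genes with large empty surroundings can collect more of these, which was not tested.

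Members were spread over all 19 autosomes at 1.59 per Mb, from 1.11 on chromosome 14 to 2.47 on chromosome 11 and 2.51 on chromosome 19. Per 100 coding genes they ran from 12.4 on chromosome 7 to 31.3 on chromosome 12. Neighbours lay a median of 259 kb apart, and 153 neighbouring pairs (3.94%) were under 10 kb apart. The densest windows of 100 kb held 7 members each: 1 on chromosome 2 over Skida1 and Mllt10, a gene of chromatin regulation, and 1 on chromosome 7 over Dedd2, Gsk3a, Erf and the repressor gene Cic. A window on chromosome 1 around Ptma, the prothymosin alpha gene, held 6. Counted over the gene body and 50 kb on either side, A930004D18Rik, Cic, Mllt10 and Skida1 had 7 members each. All but Cic are neighbours on chromosome 2, so their counts overlap with each other, and all of these counts overlap with the windows above. Gm20388 had 21, over an annotated span of 4435 kb that runs across many other genes.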

How the data were processed

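DNase-seq was deposited as a peak list and a hotspot list for each of 2 replicates of mouse E14.5 retina, called in each library on its own on mm10, per the deposited file lists. The sources used here do not give the aligner, the caller or its settings. The peak score in the lists deposited by the authors is a number from 1 to 150 of unstated meaning. Hotspots carry a −log10 false discovery rate, deposited by the authors with a ceiling of 100, which 3887 members reached in replicate 1 and 3901 in replicate 2. The files hold no read numbers, so the depth is unknown.

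Exact duplicate peak lines (34 and 56) were removed. Width was end minus start. The replicate 2 partner of a member was the hotspot past 1500 bp that shared most bases with it, and it covered less than 50% of the member in 9 cases. A peak belonged to a hotspot when its midpoint lay inside, and shares of a library's peaks count all its peaks. The class of a peak, from GENCODE M21, was promoter (within 1000 bp of any TSS), then exon, intron or intergenic. A coding TSS was the start of any transcript of a protein-coding gene. Sequence came from the RefSeq copy of GRCm38. The counting functions were tested on simulated intervals (Python 3.11.15, pandas 2.3.3, numpy 2.4.6, scipy 1.17.1).

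The members and the gene lists were chosen with earlier results of these data known. The genes named are a selection from a rule: the 20 widest members by the smaller width, the 10 widest over 1000 bp from a TSS, the 5 with the most peaks, up to 4 widest and 2 non-members per list, the 5 genes with the most members, and the regions next to the limit. Other genes named (such as Meis2, Rax, Lhx2, Dusp4, Atoh7 and Hoxa2) were chosen after their values were seen. Of 777 list entries, 762 matched an autosomal coding gene. Exact intervals cover counting error only. The replicates are separate biosamples by label, and no test between them was made.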

Additional observations from a re-analysis of the deposited data

Results flagged for a closer look

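The sex chromosomes were outside the rule, and 86 hotspots of chromosome X met its width and overlap terms, 2.57% of the 3347 replicate 1 hotspots there, beside 2.75% on the autosomes. The widest was at Mid1, a ubiquitin ligase gene, with 4689 bp in replicate 1 and 8476 bp in replicate 2. The Polycomb corepressor gene Bcor had 3393 and 3299 bp, and the demethylase gene Kdm6a 3139 and 3250 bp.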

How the results depend on the processing

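A width limit of 1000 bp gave 10644 members, 2.09 peaks per member, 78.7% at promoters, a GC content of 66.7%, a CpG observed over expected of 0.838 and 8666 genes. A limit of 2000 bp gave 1288 members, 3.77 peaks, 88.5% at promoters and 1256 genes. An overlap of at least 50% of both hotspots left 3761 members with 88.0% at promoters. With replicate 2 as the base list there were 3.61 peaks, 87.1% at promoters, 68.0% GC and 0.843. The promoter share was 82.0% with a window of 500 bp, 90.2% with 2000 bp, 84.4% with coding TSSs alone and 88.2% at the hotspot centre. The GC content was 67.3% at the hotspot centre and 60% over the whole hotspot, with CpG observed over expected of 0.835 and 0.734. Using 1 replicate alone gave 4110 to 8526 members, 2.83 to 3.22 peaks, 76.1 to 86.0% at promoters, 65.3 to 69.3% GC, 0.794 to 0.873 for CpG and 3839 to 6859 genes, with replicate 2 alone at the larger counts and the lower shares. Of all values recomputed, 47 stayed within the spread between the libraries or 1.5 times the count, and 34 moved further. A change of sign was not possible, because all are counts, shares, means, medians or ratios. For values other than counts, taking replicate 2 as the base list moves them by rule, because 2 values always differ by more than their SD. The cause of the other moves was not tested. At 2000 bp the counts were 12 of 22 progenitor genes, 15 of 34 chromatin remodelling genes and 1 ribosomal protein gene. No paired analysis was possible because the series has a single group. The depth of the libraries is not given in the files, and its part in these values was not tested.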
